A study of Mus musculus with 2 samples.

Results

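The genes of heat shock proteins and chaperones were compared between mouse CD4 T cells cultured toward pathogenic Th17 cells (pTh17) and toward non-pathogenic Th17 cells (npTh17). Membership went by gene symbol. It took each gene of the deposited count table whose symbol begins with Hsp (other than Hspg2), with Dnaj or with Cct2 to Cct8, or is Bag1 to Bag6 or Tcp1. These rules found 89 of the 22036 named genes. Of these, 71 had a mean of at least 1 CPM (counts scaled to library size) and are called measured here.

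Cells for both cultures were CD4 T cells of wild-type mice, taken from spleen and lymph node. They spent 24 h on plates coated with anti-CD3 (10 μg/mL) and anti-CD28 (5 μg/mL), with antibodies to IFNγ and IL-4 in the medium. To this the pTh17 culture added 20 ng/mL IL-6 with 20 ng/mL activin A, and the npTh17 culture added 20 ng/mL IL-6 with 2 ng/mL TGFβ1. The labels do not state strain, age or number of mice. With 1 library from each culture, no difference has a replicate check, and a ratio describes these 2 libraries and not the conditions.

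Named genes held 30877656 counts in the pTh17 library and 33470161 in the npTh17 library. The CD4 T cell markers Cd4, Cd3d, Cd3e, Cd3g and Cd28 were all present and summed to 1377 CPM in the pTh17 library and 1393 CPM in the npTh17 library. The Th17 genes Il17a, Il17f, Il23r and Rora summed to 503 CPM in the pTh17 library and 767 CPM in the npTh17 library. The members of that sum did not go one way: Il17f and Rora were lower in the pTh17 library, while Il17a had 7.86 CPM in the pTh17 library and 6.19 CPM in the npTh17 library, and Il23r had 12.8 CPM in the pTh17 library and 3.44 CPM in the npTh17 library. Markers of other cells were at or near 0. The 3 B cell markers summed to 0.453 CPM in the pTh17 library and 0.180 CPM in the npTh17 library, and the 2 CD8 T cell markers to 1.91 CPM in the pTh17 library and 1.89 CPM in the npTh17 library. The 4 myeloid markers summed to 3.78 CPM in the pTh17 library and 4.58 CPM in the npTh17 library, of which Cd68 made up 3.56 CPM in the pTh17 library and 3.68 CPM in the npTh17 library, with Csf1r at 0 in both. The 2 NK cell markers had no count. More genes had 2 counts than 1 count, at 287 against 84 in the pTh17 library and 293 against 67 in the npTh17 library. Single fragments may therefore be counted more than once, which would make the counting intervals below too narrow.

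Chaperones bind unfolded or partly folded proteins and help them to fold, assemble, cross membranes or be degraded. Hsp70 proteins work in ATP-driven cycles with DnaJ proteins, which bring clients and stimulate ATP hydrolysis, and with exchange factors such as the Hsp110 and BAG proteins, which release ADP. Hsp90 acts on kinases and receptors, and the CCT ring folds actin and tubulin, while separate sets serve the endoplasmic reticulum (ER) and the mitochondria. The factor HSF1 drives many cytosolic and mitochondrial chaperone genes through heat shock elements, and the unfolded protein response drives ER chaperone genes through ER stress elements.

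Promoter stretches of genes from the cytosol, the mitochondria and the ER are shown first, because the ratios below are ordered by these compartments. The sequences are RefSeq's for GRCm38.p6 (mm10). Of the 89 members, 73 matched a window of 250 bases before to 50 bases after a RefSeq start of the gene. The starts given with promoters are RefSeq's. The window nearest to the gene's start in GENCODE M21 was taken with no limit on distance, which came to 44081 bases for Dnaja3. The heat shock element searched was TTC, GAA and TTC with 2 free bases between units, or its reverse complement, GAA, TTC and GAA. A short form, GAA and TTC with 2 free bases between them, lies inside either and reads the same on both strands. The ER stress element was CCAAT and CCACG with 9 free bases between them, or its reverse complement, CGTGG and ATTGG. Capitals mark the matches, and each sequence reads 5′ to 3′ on its gene's strand. Hspe1 encodes the mitochondrial co-chaperonin Hsp10 and held 2 overlapping heat shock elements, which began 89 and 84 bases before its start. The stretch shown, chr1:55088053-55088082 (plus strand), also lies within the annotated gene Hspd1 on the opposite strand.
Hspe1: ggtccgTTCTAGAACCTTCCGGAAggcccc

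Hspa1b and Hspa1a encode the stress-inducible Hsp70 and are near-identical copies. Their 250 bases before the start were identical at 98.8% of positions, and each held the short form 104 bases before the start. The stretches shown are chr17:34959239-34959368 for Hspa1b and chr17:34972157-34972286 for Hspa1a, both on the minus strand.
Hspa1b: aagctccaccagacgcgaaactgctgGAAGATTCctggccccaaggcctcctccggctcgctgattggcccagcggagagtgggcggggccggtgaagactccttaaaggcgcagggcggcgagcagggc
Hspa1a: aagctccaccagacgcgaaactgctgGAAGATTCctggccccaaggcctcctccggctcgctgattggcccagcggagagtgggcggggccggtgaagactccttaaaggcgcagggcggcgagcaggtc

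Hspa5 (the ER Hsp70, BiP), Dnajc3 (a DnaJ partner of BiP) and Hsp90b1 (the ER Hsp90, GRP94) held the ER stress element. The stretches are chr2:34772020-34772049 (plus strand) for Hspa5, chr14:118937802-118937931 (plus strand) for Dnajc3 and chr10:86705510-86705674 (minus strand) for Hsp90b1. The match began 65 bases before the start in Hspa5 and 105 bases before it in Dnajc3, and Hsp90b1 held 2 matches, at 212 and 107 bases. The GENCODE M21 start of Hspa5 lies 120 bases before the RefSeq start, so the Hspa5 stretch lies after the GENCODE start.
Hspa5: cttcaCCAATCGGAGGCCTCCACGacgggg
Dnajc3: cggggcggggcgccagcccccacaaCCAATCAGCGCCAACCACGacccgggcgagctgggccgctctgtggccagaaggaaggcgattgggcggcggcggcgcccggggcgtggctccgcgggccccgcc
Hsp90b1: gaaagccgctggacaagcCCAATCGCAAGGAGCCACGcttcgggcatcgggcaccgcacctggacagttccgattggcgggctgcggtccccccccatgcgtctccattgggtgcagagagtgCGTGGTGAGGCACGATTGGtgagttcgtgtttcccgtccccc

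The ER stress element was found in 3 of the 73 matched members (4.11%), against 0.119% of the 32851 windows in the RefSeq table, and these 3 were among the 11 matched ER members. Some genes have more than 1 RefSeq window, while each member was searched in 1, and the difference between shares was not tested. The heat shock element was found in Hspe1, Hsph1 and Dnajb6, again 4.11% of the matched members, against 0.603% of all windows. In Hsph1 it lay after the start. Members with no matched window, among them Hspa8, Hsp90ab1, Hsp90aa1 and Hspa9, were not searched for any of these elements. The short form was found in 13 matched members (17.8%), against 7.86% of all windows. A match describes the letters of the window and is not a measured binding site, and no match says only that these letters are not in it.

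Across the 71 measured genes, the libraries differed by less than 2-fold at each one. By comparison, 2.25% of the 10597 measured genes of the table were at least 2-fold higher in the pTh17 library and 1.95% at least 2-fold lower. A smaller threshold, a log2 ratio of 0.32 in either direction, was passed upward by 6 members (8.45%), against 16.5% of all genes, and downward by 11 members (15.5%), against 15.2% of all genes. In direction, 37 members (52.1%) had a ratio above 1, against 49.4% of all genes, and 34 (47.9%) a ratio below 1, against 50.6%. The median log2 ratio of pTh17 over npTh17 was 0.021 for the members and −0.0045 for all genes. By FPKM the members' median was −0.00033, and with a trend on transcript length and GC content removed, as described below, it was 0.038. The central 90% of members lay between −0.49 and 0.46, and that of all genes between −0.63 and 0.70.

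Differences larger than counting error were nonetheless common. The 95% counting interval, given in brackets from here on, left out a ratio of 1 for 52 members (73.2%), against 66.9% of all genes, with 26 members (36.6%) higher in the pTh17 library, against 33.0% of all genes, and 26 (36.6%) lower, against 34.0%. Among the 41 members with a mean of 50 CPM or more, it did so for 37 (90.2%), against 77.9% of all genes with such a mean. Such shares depend on depth, because intervals narrow as counts rise, and levels were not matched within the sets. Hspa8, for one, had a mean of 5546 CPM. At 50 CPM or more, the quartiles of the log2 ratio were −0.14 and 0.12 for members and −0.16 and 0.14 for all genes. Of those 41, 22 (53.7%) had a ratio above 1, against 47.2% of all genes there, and 19 (46.3%) a ratio below 1, against 52.8%. Only 2 of them (4.88%) passed the smaller threshold upward, against 9.72%, and 4 (9.76%) downward, against 10.2%. None was 2-fold higher, against 0.380% of all genes there, or 2-fold lower, against 0.536%. In bulk libraries, fewer cells of a type and less RNA per cell cannot be told apart.

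**Figure D1:**
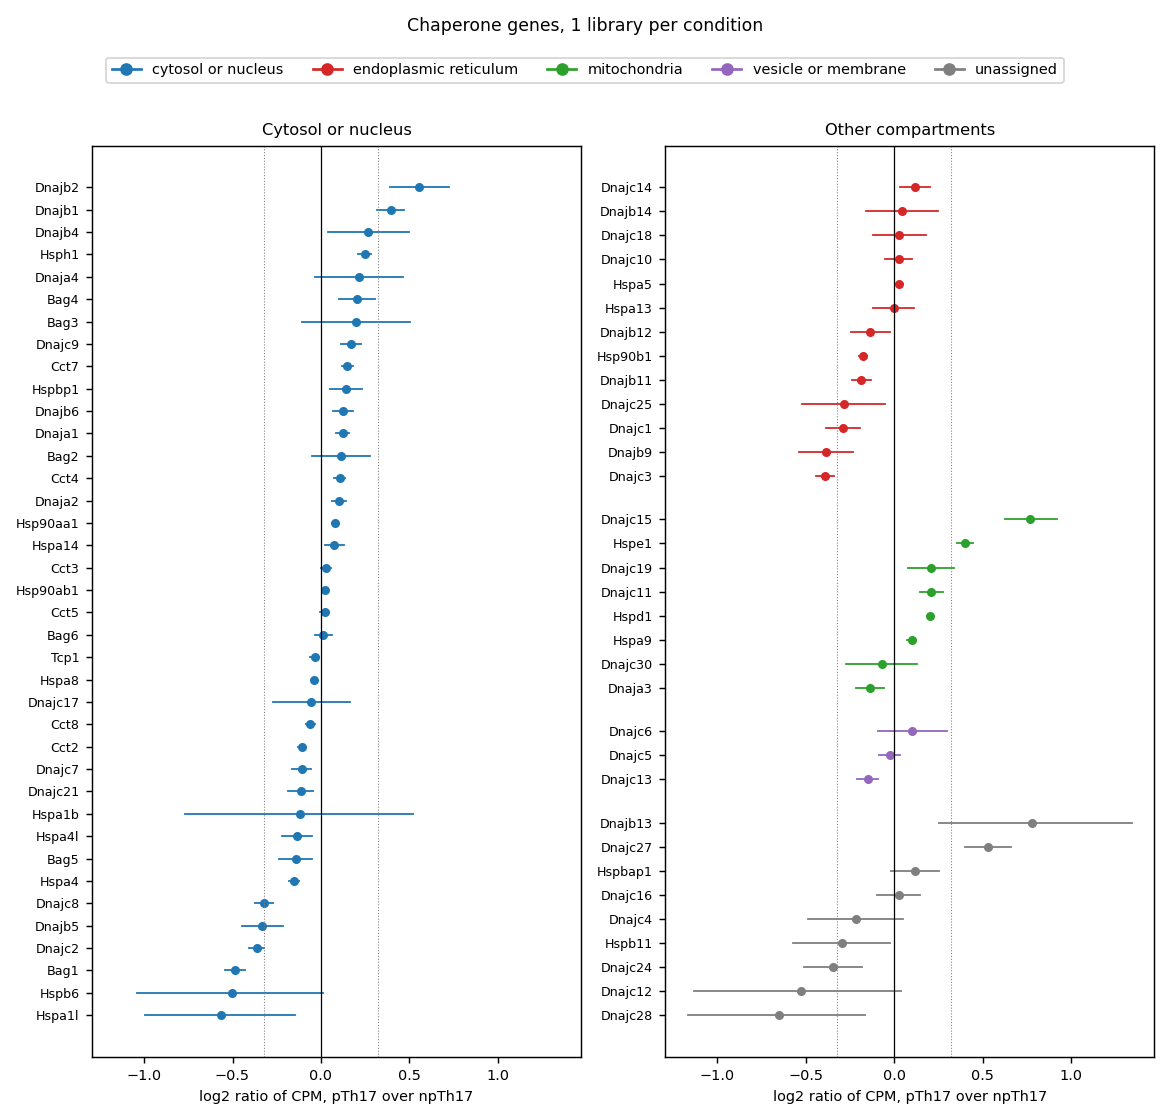
The log2 ratio of CPM (pTh17 over npTh17, x axis) is plotted for each of the 71 measured genes, by compartment of the protein, with its 95% counting interval as a line and dotted lines at the smaller threshold of 0.32. Dnajc15 stands highest among the mitochondrial genes at 0.77, Dnajc3 lowest among the ER genes at −0.39, and most cytosolic genes lie between the dotted lines.

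The measured members together held 2.84% of named-gene counts in the pTh17 library (2.83% to 2.84%) and 2.81% in the npTh17 library (2.80% to 2.82%). Hspa8 and Hsp90ab1 alone made up 37.6% of the members' counts in the pTh17 library and 38.2% in the npTh17 library. Levels of different genes were compared by FPKM, which is per length. Hspa8 had the highest level of the members, 2004 FPKM in the pTh17 library and 2066 FPKM in the npTh17 library, and stood at rank 12 of all genes by mean FPKM. Hsp90ab1 followed with 1808 FPKM in the pTh17 library and 1787 FPKM in the npTh17 library, at rank 19. Next came Hspd1 with 675 FPKM in the pTh17 library and 587 FPKM in the npTh17 library, and Hsp90aa1 with 645 FPKM in the pTh17 library and 611 FPKM in the npTh17 library. The order of these 2 genes thus differed between the libraries. Cct2 had the highest level of the CCT genes, with 414 FPKM in the pTh17 library and 446 FPKM in the npTh17 library.

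**Figure D2:**
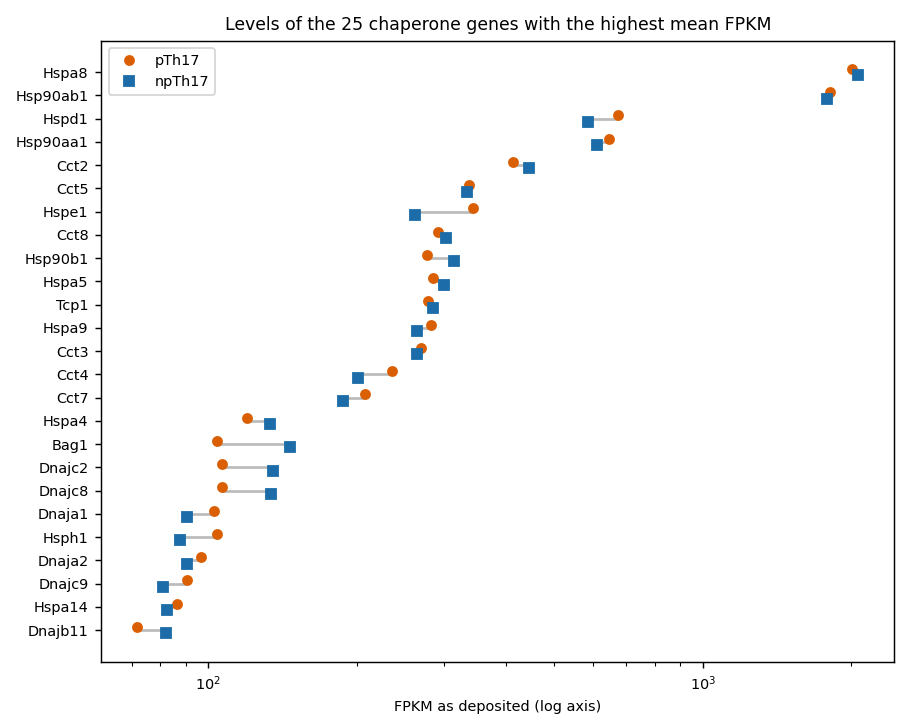
The deposited FPKM values of the 25 chaperone genes with the highest mean FPKM are plotted on a log axis, with circles for the pTh17 library and squares for the npTh17 library. Hspa8 and Hsp90ab1 stand apart from the rest in both libraries, and among the others the gap between circle and square is wide for Bag1 and Hspe1.

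**Figure D3:**
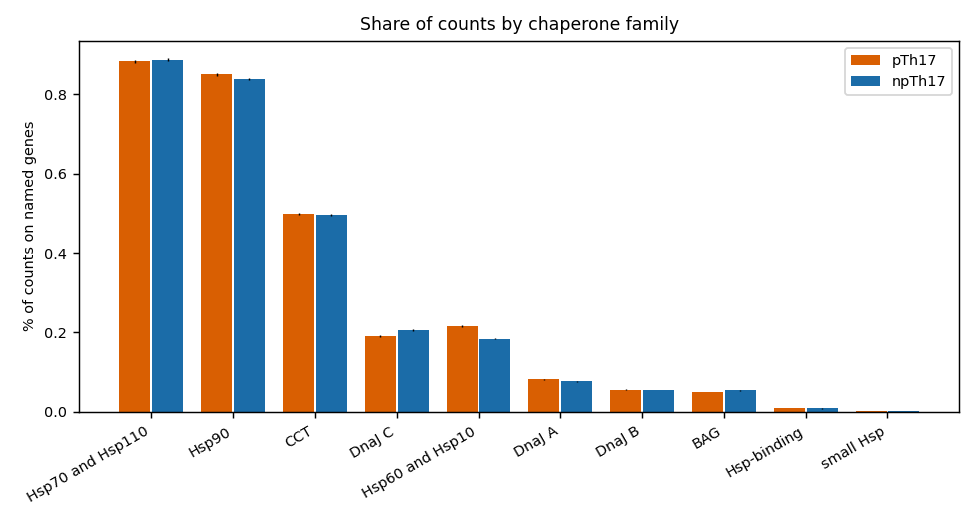
Bars show the percentage of named-gene counts that fell on the measured members of each chaperone family, pTh17 left and npTh17 right, with 95% counting intervals. Hsp70 with Hsp110 held 0.883% in the pTh17 library and 0.888% in the npTh17 library, and Hsp60 with Hsp10 held 0.216% in the pTh17 library and 0.184% in the npTh17 library.

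Ratios over all genes followed a trend on transcript length and GC content. Each log2 ratio was therefore also computed with this trend removed, and that value is given below where it turns the direction or moves the log2 ratio by over 1.5 times. Some ratios also depend on how reads were assigned. Of the measured members, 11 had a copy at least 97% identical over at least 200 bases elsewhere in the annotated transcripts, among them Hspa8, Hsp90aa1, Hspd1, Hspe1, Dnaja1, Dnajb6, Dnajc19, Cct7 and Tcp1. Reads of such a pair may be split between copies.

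The cytosolic Hsp90 genes had ratios close to 1. Hsp90ab1, the constitutive form, had 160673 counts in the pTh17 library and 171003 in the npTh17 library and was 1.02-fold higher in the pTh17 library (1.01 to 1.02). Hsp90aa1, the form that stress induces in many cells, had 74405 counts in the pTh17 library and 76180 in the npTh17 library and was 1.06-fold higher in the pTh17 library (1.04 to 1.07). Removal of the trend put the log2 ratio of Hsp90ab1 at 0.069 in place of 0.022, and that of Hsp90aa1 at 0.18 in place of 0.078.

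Cytosolic Hsp70 genes also differed little, apart from scarce ones. Hspa8, the constitutive Hsp70, had 169137 counts in the pTh17 library and 187900 in the npTh17 library and was 1.03-fold lower in the pTh17 library (1.02 to 1.03), with a log2 ratio of 0.00105 once the trend was removed. Its stress-inducible relatives, whose promoters are shown above, were scarce. Hspa1a had 18 counts in the pTh17 library and 38 in the npTh17 library, and Hspa1b had 40 counts in the pTh17 library and 47 in the npTh17 library. Their annotated transcripts are 99.2% identical over 2201 bases, so the split between them is uncertain. Summed, the pair had 58 counts in the pTh17 library and 85 in the npTh17 library, a log2 ratio of −0.43 (−0.95 to 0.059), so a difference was not detectable at this depth. Hspa1l, their neighbour with high expression in testis, had 78 counts in the pTh17 library and 125 in the npTh17 library and was 1.48-fold lower in the pTh17 library (1.11 to 1.99). It shares 71.9% of its exon bases with an antisense gene, from which its reads cannot be told apart without strand.

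Among the Hsp110-class exchange factors, Hsph1 was higher in the pTh17 library, while Hspa4 and Hspa4l were lower. Hsph1 had 13821 counts in the pTh17 library and 12591 in the npTh17 library and was 1.19-fold higher in the pTh17 library (1.16 to 1.22). Hspa4 had 19485 counts in the pTh17 library and 23402 in the npTh17 library and was 1.11-fold lower in the pTh17 library (1.09 to 1.13), with a log2 ratio of −0.079 in place of −0.15 once the trend was removed. Hspa4l had 1999 counts in the pTh17 library and 2374 in the npTh17 library and was 1.10-fold lower in the pTh17 library (1.03 to 1.17). With the trend removed, the log2 ratio of Hspa4l was −0.065 in place of −0.14. Hspa14, a ribosome-associated Hsp70, had 5483 counts in the pTh17 library and 5625 in the npTh17 library and was 1.05-fold higher in the pTh17 library (1.01 to 1.09). The exchange factor Hspbp1 had 1992 counts in the pTh17 library and 1951 in the npTh17 library, a log2 ratio of 0.14 (0.051 to 0.23) that came to 0.00919 with the trend removed.

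Of the 14 DnaJ genes of the cytosol or nucleus, 8 had a ratio above 1 and 6 below. Their summed log2 ratio was −0.021 (−0.037 to −0.0047). Genes of the A and B classes were mostly higher in the pTh17 library, and those of the C class, given below, mostly lower. All 3 cytosolic DnaJ A genes and 4 of 5 cytosolic DnaJ B genes had a ratio above 1, against 49.4% of all genes. The median log2 ratio was 0.12 for the A genes and 0.27 for the B genes. With the trend removed, the median of the A genes was that of Dnaja1, 0.22. Dnaja4, 1 of the A genes, had a log2 ratio of 0.21 with an interval that includes 0 (−0.035 to 0.46). It shares 44.1% of its exon bases with the more abundant Wdr61 on the opposite strand. Dnajb1, the heat-inducible Hsp40, had 3104 counts in the pTh17 library and 2552 in the npTh17 library, a log2 ratio of 0.39 (0.32 to 0.47). Dnajb2, which in neurons steers ubiquitinated clients to the proteasome, had 683 counts in the pTh17 library and 502 in the npTh17 library and was 1.47-fold higher in the pTh17 library (1.31 to 1.65). These were the DnaJ B genes of the cytosol that passed the smaller threshold upward. Dnajb5 passed it downward, with 1018 counts in the pTh17 library and 1384 in the npTh17 library, and was 1.26-fold lower in the pTh17 library (1.16 to 1.37). With the trend removed, the log2 ratio of Dnajb5 was −0.313, short of the threshold.

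The general Hsp70 co-chaperones had smaller ratios. Dnaja1 had 12611 counts in the pTh17 library and 12519 in the npTh17 library and was 1.09-fold higher in the pTh17 library (1.06 to 1.12). Dnaja2 had 9979 counts in the pTh17 library and 10063 in the npTh17 library and was 1.07-fold higher in the pTh17 library (1.04 to 1.10). With the trend removed, log2 ratios were 0.22 for Dnaja1 and 0.21 for Dnaja2, in place of 0.12 and 0.10.

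Of the cytosolic and nuclear DnaJ C genes, 5 of 6 were below 1, against 50.6% of all genes, with a median log2 ratio of −0.11. Dnajc2, which binds ribosomes and meets the growing chain, had 8062 counts in the pTh17 library and 11218 in the npTh17 library, a log2 ratio of −0.36 (−0.41 to −0.32). Dnajc8, a splicing-associated protein, had 5210 counts in the pTh17 library and 7048 in the npTh17 library, a log2 ratio of −0.32 (−0.38 to −0.27). Both were thus lower in the pTh17 library by more than the smaller threshold, Dnajc8 only just. Scaled by library totals, Dnajc8 was at −0.3196, short of the threshold of 0.3219. With the trend removed, Dnajc2 was at −0.28, also short of it.

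Ratios past that threshold were also found in genes given no compartment. Dnajc27, a Rab-like GTPase with a J domain, had 1152 counts in the pTh17 library and 862 in the npTh17 library and was 1.44-fold higher in the pTh17 library (1.32 to 1.58). Dnajc24, which acts in the synthesis of diphthamide on elongation factor 2, had 527 counts in the pTh17 library and 725 in the npTh17 library and was 1.27-fold lower in the pTh17 library (1.14 to 1.43). The 9 measured genes of this kind had a median log2 ratio of −0.22, which was −0.42 with the trend removed.

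The CCT genes, whose products are the related subunits of 1 ring, lay close together. The 7 measured genes had log2 ratios between −0.11 and 0.15, with 4 above 1 and 3 below. Their levels ran from 207 to 414 FPKM in the pTh17 library and from 187 to 446 FPKM in the npTh17 library. Cct7 had the highest ratio, with 17840 counts in the pTh17 library and 17382 in the npTh17 library, and was 1.11-fold higher in the pTh17 library (1.09 to 1.13). Cct2 had the lowest, with 28405 counts in the pTh17 library and 33051 in the npTh17 library, and was 1.08-fold lower in the pTh17 library (1.06 to 1.09). Summed over these 7 genes, the log2 ratio was 4.2e-05 (−0.010 to 0.010), an interval that includes 0. No gene named Cct6a was among the members, so that subunit gene is not covered here.

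The other measured CCT genes had log2 ratios of 0.11 (0.076 to 0.13) for Cct4, 0.030 (0.0012 to 0.059) for Cct3, 0.021 (−0.0052 to 0.048) for Cct5, −0.034 (−0.060 to −0.0088) for Tcp1 and −0.061 (−0.086 to −0.036) for Cct8. Of these 5, only the interval of Cct5 included 0. With the trend removed, Tcp1 and Cct8 turned to 0.039 and 0.032, Cct4 and Cct3 came to 0.19 and 0.066 (Cct4 was at 0.22 by FPKM), Cct5 to 0.038 and Cct2 to −0.059. Tcp1 shares 11.4% of its exon bases with Acat3 on the opposite strand, and the pair summed gave −0.031.

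Mitochondrial chaperone genes were mostly higher in the pTh17 library, with 6 of 8 above 1, against 49.4% of all genes. Their median log2 ratio was 0.21, which was also 0.21 with the trend removed. Hspd1 (chr1:55077835-55088243, minus strand) and Hspe1 (chr1:55088132-55091307, plus strand) encode Hsp60 and Hsp10, the barrel and lid of the mitochondrial folding chamber, and lie head to head. Hspd1 had 57341 counts in the pTh17 library and 53942 in the npTh17 library and was 1.15-fold higher in the pTh17 library (1.14 to 1.16). Hspe1, with the heat shock elements shown above, had 9392 counts in the pTh17 library and 7692 in the npTh17 library and was 1.32-fold higher in the pTh17 library (1.28 to 1.36). The transcript of Hspe1 is short, at 774 bases, and its log2 ratio was 0.11 in place of 0.40 with the trend removed. A counted near-identical copy, AC117239.2, had 157 counts in the pTh17 library and 168 in the npTh17 library, and summed with Hspe1 gave 0.39.

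Dnajc15 (chr14:77820681-77875125, minus strand), an inner membrane DnaJ protein that in mouse CD8 T cells restrains respiration, had the highest ratio of the members with a mean of at least 5 CPM. It had 982 counts in the pTh17 library and 622 in the npTh17 library and was 1.71-fold higher in the pTh17 library (1.54 to 1.89). Hspa9, the Hsp70 of the import motor, had 30230 counts in the pTh17 library and 30531 in the npTh17 library and was 1.07-fold higher in the pTh17 library (1.05 to 1.09), with a log2 ratio of 0.19 in place of 0.10 once the trend was removed. Dnajc11, linked to the organisation of cristae, had 4033 counts in the pTh17 library and 3768 in the npTh17 library and was 1.16-fold higher in the pTh17 library (1.11 to 1.21). Dnaja3 and Dnajc30 were the mitochondrial members below 1. Dnaja3, a co-chaperone of Hspa9, had 2504 counts in the pTh17 library and 2976 in the npTh17 library and was 1.10-fold lower in the pTh17 library (1.04 to 1.16), while Dnajc30 had a log2 ratio of −0.072 (−0.27 to 0.13). Dnajc30 shares 26.2% of its exon bases with Bud23 on the opposite strand, and summed with Bud23 the log2 ratio was 0.35. For Dnajc30 alone it was −0.13 with the trend removed. For Dnaja3 the log2 ratio was −0.083 in place of −0.14 with the trend removed.

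In the ER, 8 of 13 chaperone genes were below 1, against 50.6% of all genes, with a median log2 ratio of −0.13. The counting interval lay below a ratio of 1 for 7 of them, against 34.0% of all genes, and above it for 2, against 33.0%. With the trend removed, the median was −0.077, with 6 genes above 1 and 7 below. Dnajc3, a BiP co-chaperone that also inhibits the kinase PERK, had 5142 counts in the pTh17 library and 7298 in the npTh17 library and was 1.31-fold lower in the pTh17 library (1.27 to 1.36). Dnajb9, which acts in ER-associated degradation and represses the sensor IRE1, had 609 counts in the pTh17 library and 860 in the npTh17 library and was 1.31-fold lower in the pTh17 library (1.18 to 1.45). Dnajc3 and Dnajb9 thus passed the smaller threshold downward. With the trend removed, their log2 ratios were −0.308 and −0.272, both short of it. Dnajc1, an ER membrane DnaJ protein, had 1556 counts in the pTh17 library and 2055 in the npTh17 library and was 1.22-fold lower in the pTh17 library (1.14 to 1.31).

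The ER genes whose ER stress elements are shown above did not share a ratio. Beside the lower Dnajc3, Hsp90b1, which folds integrins and Toll-like receptors, had 27665 counts in the pTh17 library and 33790 in the npTh17 library and was 1.13-fold lower in the pTh17 library (1.11 to 1.15). Its log2 ratio was −0.077 in place of −0.18 with the trend removed. Hspa5, the central ER Hsp70, had 31255 counts in the pTh17 library and 33195 in the npTh17 library, a log2 ratio of 0.025 (0.0028 to 0.047), while FPKM put it at −0.077 and removal of the trend at 0.11. The direction for Hspa5 thus depends on the unit.

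Among the other ER genes, Dnajb11, a soluble BiP partner, had 4862 counts in the pTh17 library and 5979 in the npTh17 library and was 1.14-fold lower in the pTh17 library (1.10 to 1.18). Dnajc10, an ER disulfide reductase, had a log2 ratio of 0.025 (−0.050 to 0.10), and Hspa13, an ER-associated Hsp70, one of −0.00376 (−0.12 to 0.11). Neither differed detectably at this depth, and with the trend removed these were 0.11 for Dnajc10 and 0.11 for Hspa13.

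**Figure D4:**
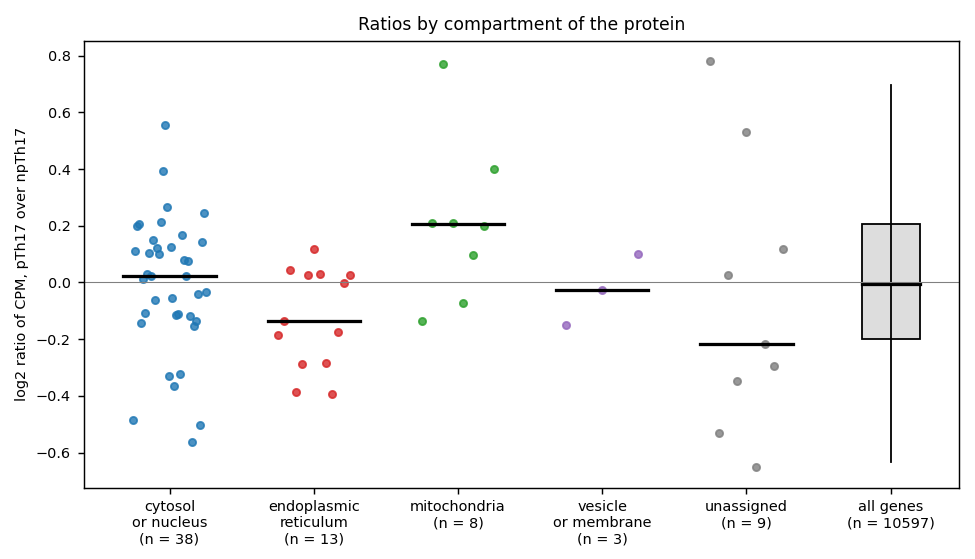
Each point is the log2 ratio of CPM (pTh17 over npTh17) of 1 measured chaperone gene, by compartment, with the median as a bar, and the last column gives the median, quartiles and central 90% of all 10597 genes. The median was 0.21 for mitochondrial, 0.022 for cytosolic or nuclear and −0.13 for ER genes.

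Summed over genes, which lets abundant ones weigh more, the log2 ratio was 0.18 (0.17 to 0.19) for mitochondrial genes, −0.00112 (−0.0059 to 0.0037) for cytosolic or nuclear genes and −0.10 (−0.11 to −0.087) for ER genes. Mitochondrial members held 0.343% of named-gene counts in the pTh17 library and 0.301% in the npTh17 library. ER members held 0.259% in the pTh17 library and 0.277% in the npTh17 library. The vesicle genes Dnajc5, Dnajc6 and Dnajc13 had a median of −0.026, which was 0.013 with the trend removed. With 1 library per condition, the difference between compartments was not tested.

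Of the BAG exchange factors, Bag1 had the lowest ratio. Bag1 (chr4:40936398-40948294, minus strand), which links Hsp70 to the proteasome and binds Bcl2, had 4161 counts in the pTh17 library and 6294 in the npTh17 library and was 1.40-fold lower in the pTh17 library (1.35 to 1.46). It was also the lowest of the members with a mean of at least 5 CPM by the interval bound nearest to 1. Bag4, which silences death receptors, had 1619 counts in the pTh17 library and 1517 in the npTh17 library and was 1.15-fold higher in the pTh17 library (1.07 to 1.24), but shares 14.8% of its exon bases with a non-coding RNA on the opposite strand. Bag5 had 1694 counts in the pTh17 library and 2022 in the npTh17 library and was 1.10-fold lower in the pTh17 library (1.03 to 1.18).

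The intervals of Bag2, Bag3 and Bag6 included 0. Bag2, which inhibits the ubiquitin ligase CHIP, had 601 counts in the pTh17 library and 601 in the npTh17 library, a log2 ratio of 0.11 (−0.054 to 0.28). Bag3, an HSF1 target that takes aggregates to autophagy, had 187 counts in the pTh17 library and 176 in the npTh17 library, a log2 ratio of 0.20 (−0.11 to 0.50). Bag6, which guards tail-anchored proteins, had 7049 counts in the pTh17 library and 7550 in the npTh17 library, a log2 ratio of 0.013 (−0.034 to 0.060) that was −0.047 with the trend removed and 0.10 by FPKM.

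Small heat shock protein genes were scarce, and of 8 only Hspb6 and Hspb11 were measured. Hspb11, a part of the intraflagellar transport machinery, had 196 counts in the pTh17 library and 260 in the npTh17 library and was 1.23-fold lower in the pTh17 library (1.02 to 1.49), with a log2 ratio of −0.65 in place of −0.29 once the trend was removed. Hspb6 had 52 counts in the pTh17 library and 80 in the npTh17 library, with an interval that includes a ratio of 1, and Hspb1 had 4 counts in the pTh17 library and 11 in the npTh17 library. A count of 0, as for Hspb2, Hspb3 and Hspb8, allows up to 0.0972 CPM in the pTh17 library and 0.0896 CPM in the npTh17 library, from a limit of 3 counts.

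In all, 18 members lay under 1 CPM. Of these, Dnajc5b, Dnajc5g, Hspb2, Hspb3 and Hspb8 had no count in either library. Another 4 had counts in 1 library only. Dnajb8 had 8 counts in the pTh17 library and 0 in the npTh17 library. Cct6b had 5 counts in the pTh17 library and 0 in the npTh17 library. Hspb7 had 0 counts in the pTh17 library and 6 in the npTh17 library, and Dnajc22 had 0 in the pTh17 library and 4 in the npTh17 library. These counts are too few for a fold to be given. Hspa12a, an atypical Hsp70 relative under 1 CPM, was named after its values were seen, with 39 counts in the pTh17 library and 11 in the npTh17 library, and was 3.59-fold higher in the pTh17 library (1.92 to 8.30).

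Dnajb13, measured and likewise named after its values were seen, is uncertain. It had 77 counts in the pTh17 library and 48 in the npTh17 library, a log2 ratio of 0.78 (0.26 to 1.35) by counts and 0.082 by FPKM. It shares 11.2% of its exon bases with the abundant gene Ucp2 on the opposite strand, and summed with Ucp2 the log2 ratio was −0.52.

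Chaperone genes outside the naming rule were read from 5 lists. None of their measured genes passed 2-fold, against 2.25% of all genes upward and 1.95% downward. From each list the 2 highest and 2 lowest genes are given, ranked by the interval bound nearest to 0 and not by the log2 ratio itself. The heat shock factor genes Hsf1 and Hsf2 had log2 ratios of 0.018 (−0.075 to 0.11) and 0.012 (−0.11 to 0.14), which were −0.037 for Hsf1 and 0.13 for Hsf2 with the trend removed. Of 27 co-chaperones of Hsp90 and Hsp70, 21 were above 1 and 6 below, against 49.4% and 50.6% of all genes, and the median was 0.095. Past the smaller threshold were 4 upward and none downward, against 16.5% and 15.2% of all genes. Pih1d1, of the R2TP assembly complex, was at 0.51 (0.36 to 0.65) and the Hsp90 immunophilin gene Fkbp4 at 0.37 (0.33 to 0.40). Ranked lowest were Chordc1 at −0.21 (−0.26 to −0.16) and Ttc4 at −0.24 (−0.34 to −0.15), both Hsp90 co-chaperone genes. After removal of the trend, Pih1d1 was at 0.30 and Chordc1 at −0.077.

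Of 10 prefoldin and CCT helper genes, 5 were above 1 and 5 below, with a median of −0.024. Past the smaller threshold were 3 upward and none downward, against 16.5% and 15.2% of all genes. The prefoldin subunit genes Pfdn6 and Pfdn2 were at the top, at 0.72 (0.62 to 0.83) and 0.64 (0.55 to 0.73). Txndc9, at −0.11 (−0.18 to −0.045), and the prefoldin subunit gene Vbp1, at −0.075 (−0.14 to −0.011), ranked lowest by that bound. With the trend removed, Pfdn6 was at 0.42, and Txndc9 and Vbp1 turned to 0.012 and 0.00942. The median of the list then turned to above 0, between Uri1 at 0.00956 and Txndc9.

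Of 11 further mitochondrial folding and import genes, 7 were above 1 and 4 below, against 49.4% and 50.6% of all genes, with a median of 0.12. Past the smaller threshold were 2 upward and none downward, against 16.5% and 15.2% of all genes. The import motor gene Pam16 was at 0.46 (0.29 to 0.64) and the protease gene Clpp at 0.38 (0.28 to 0.49). The import receptor gene Tomm70a was at −0.10 (−0.14 to −0.062) and the protease gene Clpx at −0.10 (−0.19 to −0.011). After removal of the trend, Pam16 turned to −0.029, Clpp came to 0.11, Tomm70a to −0.00697 and Clpx to −0.00529. The median of the list then fell on Clpx, so the upward lean of the list was no longer seen.

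Of 23 further ER genes, 8 were above 1 and 15 below, against 49.4% and 50.6% of all genes, with a median of −0.10. Past the smaller threshold were 4 in each direction, against 16.5% of all genes upward and 15.2% downward. By that bound the lowest were Xbp1, a transcription factor of the unfolded protein response, at −0.42 (−0.49 to −0.35) and the disulfide isomerase gene Pdia3 at −0.38 (−0.40 to −0.35). By the same bound the highest were Sdf2l1, a BiP-associated protein, at 0.52 (0.42 to 0.61) and Edem1, which acts in ER-associated degradation, at 0.40 (0.34 to 0.46). Removing the trend put Sdf2l1 at 0.31.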

How the data were processed

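The series holds 2 mRNA sequencing libraries, 1 per condition, made from poly(A)-selected RNA copied with random primers. The labels' protocols describe neither strand marking nor molecular identifiers. The authors deposited whole-number counts per gene and FPKM values (scaled to transcript length and depth) for the same genes, per the file headers. The submitters' processing notes give mm10 as the build, and the sources used here name no aligner, counter or annotation.

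Features with no gene name (1646) held 2.50% of counts in the pTh17 library and 2.90% in the npTh17 library and were left out. The 22036 named genes held 30877656 counts in the pTh17 library and 33470161 in the npTh17 library. Log2 ratios of CPM, pTh17 over npTh17, used TMM scaling in edgeR 4.0.16 (R 4.3.3) and a prior count of 1, and only genes averaging 1 CPM or more were kept. Bracketed ranges are 95% Clopper-Pearson intervals of the share of counts in the pTh17 library. Reads are not independent molecules without identifiers, so intervals and floors cover counting error only. With 1 library per condition no test was made and no p-value computed. Alternatives were library totals, DESeq2 1.42.0 size factors, other filters and prior counts, FPKM (with 0.1 added before the log), a length and GC trend removed with splines of 4 degrees of freedom, and summed overlapping pairs. The calculations were checked on simulated data.

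Gene positions came from GENCODE M21 and promoter windows from RefSeq. Copies were sought with BLAST 2.17.0 among GENCODE M21 transcripts. Compartments were assigned from general knowledge of each protein and were not measured. Genes named with values are a list of well-known members, the 8 highest and 8 lowest of the members averaging 5 CPM or more, ranked by the interval bound nearest to a ratio of 1, the member of each family with the most counts, and 2 at each end of each further list. The members and lists were chosen with earlier results of these data known.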

Additional observations from a re-analysis of the deposited data

How the results depend on the processing

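Library totals, DESeq2 size factors and a prior count of 5 turned the sign of no median of a family or compartment and changed no count of members past a threshold by over 1.5 times. The 17 measured members past the smaller threshold kept their sign under all 5 rescalings, which add FPKM and removal of the length and GC trend to these 3. The ratio of Dnajb13 reversed, to −0.52, when its counts were summed with those of Ucp2. With the trend removed, median log2 ratios were 0.21 for DnaJ A, in place of 0.11, and 0.19 for Hsp60 with Hsp10, in place of 0.30. They were 0.053 for Hsp70 with Hsp110, in place of −0.022, and 0.069 for Hsp90, in place of 0.022. By FPKM they were 0.10 for vesicle genes, in place of −0.026, and −0.039 for the Hsp-binding genes Hspbp1 and Hspbap1, in place of 0.13. With no filter on low counts, which left 84 members with a count, 11 passed the smaller threshold upward and 18 downward. Among these 84, 3 were at least 2-fold higher and 4 at least 2-fold lower, all of them under 1 CPM. A filter at 5 CPM left 7 past the smaller threshold downward. The share of all genes was not computed without a filter or at 5 CPM, so these counts cannot be set against it. A filter at 50 CPM, chosen after seeing the data, left 2 upward and 4 downward. Medians there were −0.088 for vesicle genes, −0.14 for BAG genes, in place of 0.062, and 0.025 for Hsp70 with Hsp110 genes. The sign of the vesicle, BAG, Hsp-binding and Hsp70 with Hsp110 medians thus turned under at least 1 of these settings. Without genes that overlap another counted gene or have a counted copy, also chosen after seeing the data, Hsp60 with Hsp10 rested on Hspd1 alone, at 0.20. Filters change the counts through the genes they keep, and the cause of the other changes was not tested. No member is named as a pseudogene, so leaving those out changed nothing. Depth limits Hspa1b, at a mean just above 1 CPM, and the 18 members under 1 CPM. No paired analysis was possible because each condition has 1 library.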
